A study of Homo sapiens with 8 samples.

Results

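The 9 genes described here act where transcription or DNA repair is blocked by bulky damage or by a protein bound covalently to DNA: *UVSSA*, *ERCC6*, *ERCC8*, *XAB2*, *POLR2A*, *SPRTN*, *TDP1*, *TDP2* and *XPA*. They were taken by name from the 58735 genes of the deposited tables, and all 9 were among the 18242 genes with enough reads to test. The set was selected on the isoform shares and gene sums of *UVSSA* in these libraries, with the other 8 genes taken from the same repair pathways while results of these data were known, so the *UVSSA* values below are a description. *UVSSA* was part of every fit and is in the counts of genes and isoforms tested, but nothing is read from its own tests. BEAS-2B cells, an immortalized and established line of human bronchial epithelium, were held at the air–liquid interface and exposed for 2 h to clean air (CA) or to air with 1 ppm formaldehyde (FA), then left to recover for 6 h. Total RNA depleted of ribosomal RNA was sequenced as input (IN) and after immunoprecipitation (IP) with an antibody against 8-oxo-7,8-dihydroguanosine (8-oxoG), an oxidized form of guanosine. This gave 4 groups of 2 libraries: CA_IN, FA_IN, CA_IP and FA_IP. The labels describe the immunoprecipitations as biological duplicates, and per the study's methods a portion of each depleted RNA pool went to the antibody while the rest served as input. All 4 groups come from this single line, grown on collagen-coated inserts, and stand for no other bronchial cell. In such bulk RNA, fewer cells that express a gene and less RNA per cell cannot be told apart.

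In transcription-coupled repair, an elongating RNA polymerase II that stalls at a lesion is recognized by CSB, the product of *ERCC6*. CSB brings in CSA, the product of *ERCC8*, which serves as the substrate adaptor of a ubiquitin ligase, and UVSSA, which binds the complex and helps bring the repair factor TFIIH to the site. *XAB2* codes for a protein that binds XPA and also works in pre-mRNA splicing, *XPA* for a factor that verifies damage and positions the incision nucleases, and *POLR2A* for the largest polymerase subunit. Formaldehyde joins proteins to DNA. *SPRTN* codes for a protease that digests such crosslinked proteins, while *TDP1* and *TDP2* code for enzymes that release trapped topoisomerases from the 3′ and 5′ DNA ends respectively.

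In *UVSSA*, 3 coding isoforms and 1 isoform annotated for nonsense-mediated decay carried enough reads to test. The gene lies on chromosome 4 at chr4:1345691-1395989 on the plus strand (GRCh38, GENCODE 44). In that annotation the 3 coding isoforms share 12 whole exons and the same coding span, from 1348092 to 1385958. They differ in the first exon, which is 5′ untranslated, and in the length of the last exon, which ends in the 3′ untranslated region. The first exon of ENST00000507531 lies at chr4:1347706-1347887, that of ENST00000511216 at chr4:1347266-1347609 and that of ENST00000389851 at chr4:1347208-1347760. The junction of each first exon with exon 2 is shown because it is a part by which a read can tell the isoforms apart; capitals mark the last 15 bases of the first exon, and the lower-case bases are the first 15 of the shared exon 2, in which the start codon begins at base 3:
ENST00000507531: GGTCCCGAGTTTAAGatatggatcagaaac
ENST00000511216: GCCTCATCCCACCAGatatggatcagaaac
ENST00000389851: CCCTGCGGAATCTGAatatggatcagaaac

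Of the 2597 bases of ENST00000507531, 2415 were also part of ENST00000511216, or 93.0%. Within its first exon, 127 bases (chr4:1347761-1347887) belonged to neither of the other 2 coding isoforms. The authors counted against Ensembl 94, in which some lengths differ: ENST00000511216 measured 2927 bases in the files and 12504 in GENCODE 44, and ENST00000389851 measured 12605 bases in the files and 4773 in GENCODE 44. ENST00000507531 had 2597 bases in both. The exons of Ensembl 94 were not compared, so the junctions and the shared and own bases given here hold for GENCODE 44 only.

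**Figure D1:**
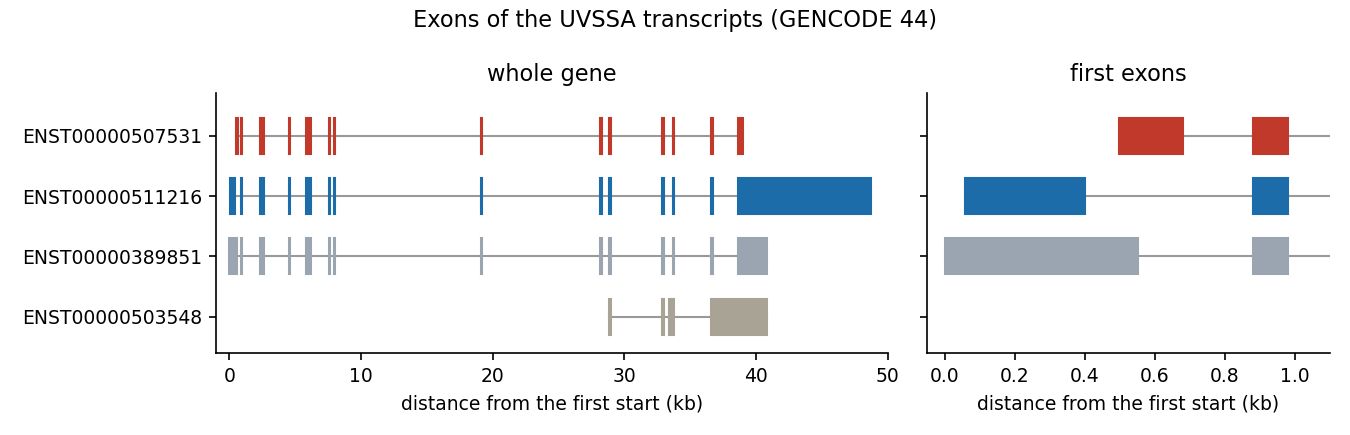
Exons of the 4 tested *UVSSA* isoforms as annotated in GENCODE 44, drawn to scale by distance in kb from the most upstream start, for the whole gene (left) and its first exons (right). Boxes are exons and lines are introns; the 3 coding isoforms share 12 whole exons and differ at both ends, and ENST00000503548 covers only the 3′ part of the gene.

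The 4 input libraries held 26152651 to 45144392 expected counts and the 4 IP libraries 16883500 to 23658012. All 9 epithelial markers examined (*KRT5*, *KRT7*, *KRT8*, *KRT17*, *KRT18*, *KRT19*, *EPCAM*, *CDH1* and *TP63*) reached a transcripts-per-million (TPM) value of 1, while the leukocyte markers *PTPRC* and *CD3E* and the endothelial marker *VWF* stayed at or below 0.027 TPM in every library. Not all markers of other cell types were near 0: the macrophage marker *CD68* lay between 1.47 and 3.84 TPM, the alveolar markers *AGER* and *SFTPB* reached 1.31 and 1.11 TPM, and the endothelial marker *PECAM1* reached 0.302 TPM. Of the 5 mesenchymal markers, 4 reached 1 TPM. *VIM* lay between 173 and 476 TPM and *CDH2* between 3.31 and 7.96 TPM. *COL1A1* lay between 0.918 and 2.34 TPM, *ACTA2* between 0.500 and 2.53 TPM, and *DCN* at or below 0.112 TPM. TPM, which divides reads by transcript length and makes each library sum to a fixed total, was about doubled by IP for genes in general: the median IP-to-input ratio over all tested genes was 1.92 in clean air and 1.84 in formaldehyde, and the summed epithelial markers held 1271 to 1642 TPM in input and 2906 to 3889 TPM in IP. The 9 repair genes had TPM ratios of 1.52 to 2.44 in clean air and 1.65 to 2.26 in formaldehyde. IP and input are therefore compared below on counts-per-million (CPM) values scaled by the trimmed mean of M values (TMM), on which the median gene had ratios of 1.01 and 1.00.

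*UVSSA* as a whole gene held 6.62 ± 1.31 TMM-scaled CPM in CA_IN (SD, n = 2), 6.70 ± 0.589 in FA_IN, 6.78 ± 0.505 in CA_IP and 7.15 ± 0.409 in FA_IP (SD, n = 2 each). The replicate values of the 4 groups overlapped. In expected counts it was the shallowest of the 9 genes, with 248 and 276 in the clean air inputs, 151 and 246 in the formaldehyde inputs, and, after IP, 152 and 148 in clean air and 124 and 181 in formaldehyde. The shares of its isoforms therefore rest on few reads.

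ENST00000507531, which in GENCODE 44 has its own 127 bases of first exon, took 64.9 and 43.1 expected counts of the clean air inputs and 21.3 and 25.7 of the formaldehyde inputs. In the IP libraries it had 0.470 and 0 counts in clean air but 21.4 and 31.8 in formaldehyde. Both CA_IP libraries were at or near 0, and the other 6 were not. Its share of the *UVSSA* count was 26.2% in CA_IN replicate 1 (95% exact binomial interval 20.8 to 32.1%) and 15.6% in replicate 2 (11.5 to 20.4%). In FA_IN the shares were 14.1% (8.82 to 20.5%) and 10.4% (7.02 to 15.1%), with a mean difference of −8.63 percentage points. Both lay below those of CA_IN, but the intervals of CA_IN replicate 2 and FA_IN replicate 1 overlapped. How many of all transcripts had input shares apart was not counted, so nothing is read from this order. In CA_IP the shares were 0.309% and 0%. The exact upper limits were 2.40% and 2.46%, and the floor of 3 counts used for the folds below was 2.03% in that second library. In FA_IP they were 17.3% (10.8 to 24.7%) and 17.5% (12.4 to 24.0%). These intervals cover counting error only, not the division of reads among isoforms. With the CA_IP libraries set to a floor of 3 counts, the CA_IP mean was 10.0-fold below that of CA_IN and 9.25-fold below that of FA_IP. The floor of 2.03% lay below the exact upper limit of 2.46% in the second library, so these folds are not lower bounds.

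ENST00000511216 had the opposite pattern in the IP libraries, while its shares in CA_IN and FA_IN overlapped. The input libraries gave it 57.4 and 57.5 expected counts in clean air and 48.8 and 49.98 in formaldehyde. After IP it took 90.1 and 71.8 counts in clean air but 42.4 and 50.4 in formaldehyde. Its share was 59.3% and 48.6% in the CA_IP libraries, above all 6 other libraries, which lay between 20.3 and 34.2%. ENST00000507531 and ENST00000511216 summed had 3.60 ± 0.207 CPM in CA_IP and 3.44 ± 0.0479 CPM in FA_IP (SD, n = 2 each), a smaller difference between the IP groups than that of either isoform. Of the *UVSSA* count the pair held 59.6% and 48.6% after IP in clean air, against 51.5% and 45.4% in formaldehyde, ranges that overlapped. Whether reads of one isoform were assigned to the other was not tested.

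Of the other isoforms, ENST00000389851 made up 27.3 to 45.1% of the count in the 4 input libraries, 18.6% and 31.4% after IP in clean air, and 26.4% and 29.2% after IP in formaldehyde. The nonsense-mediated decay isoform ENST00000503548 made up 15.6 to 23.9% in every library. The 5 other annotated isoforms had at most 5 counts each in any library. With a library left out, the FA_IP minus CA_IP difference in the share of ENST00000507531 ranged from 17.1 to 17.4 percentage points. On TPM shares the difference was 23.6 percentage points. The isoform was chosen for this pattern, so these values describe it and lend it no further support.

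**Figure D2:**
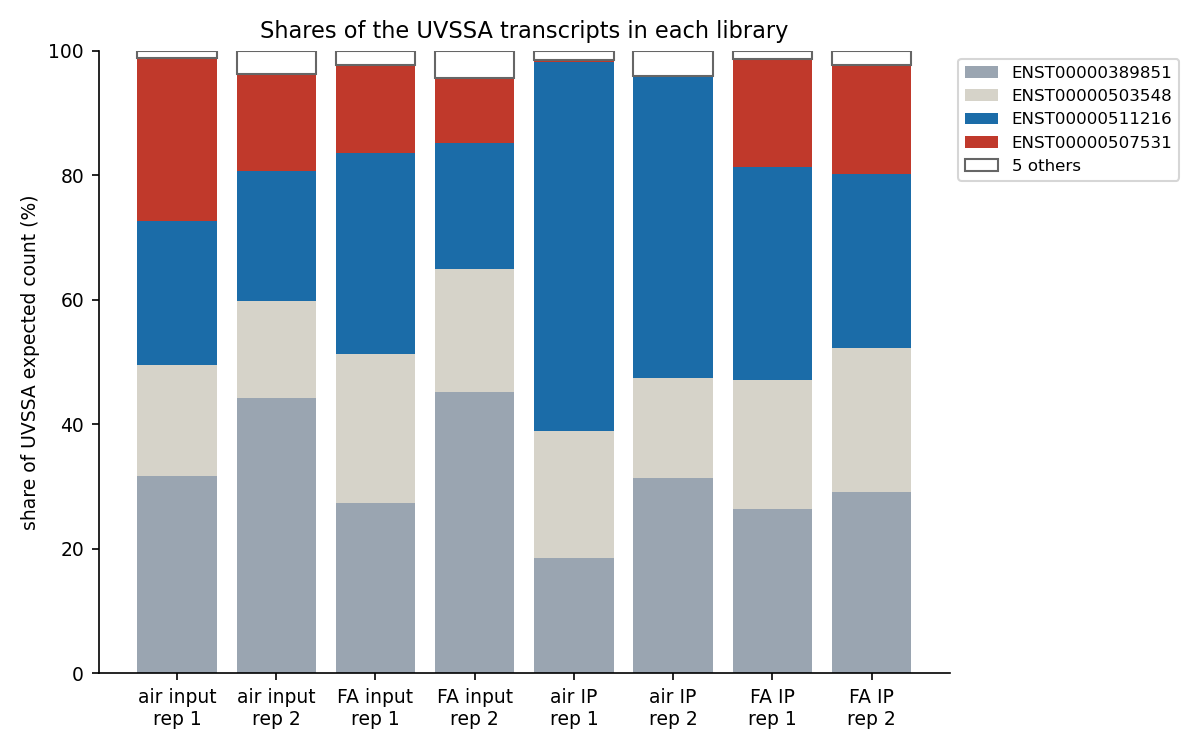
Share of the *UVSSA* expected count (%) held by each isoform in each of the 8 libraries, as stacked bars. ENST00000507531 holds 10.4 to 26.2% in the input and FA_IP libraries and at most 0.309% in the CA_IP libraries, where ENST00000511216 holds 48.6 and 59.3%.

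At the transcript level 50 of the 79 annotated isoforms of the 9 genes passed the filter on low counts. ENST00000507531 was the only one called in any comparison by edgeR's quasi-likelihood test, as lower in CA_IP than in CA_IN, where 0.227% of all tested transcripts were called lower. In that comparison 0 were called higher (0.0147% of all transcripts), and in FA_IP against FA_IN 0 were called in either direction (0.00737% higher and 0.137% lower). At an unadjusted p under 0.05 there were 1 of 50 between the inputs (2.8% of all transcripts), 7 for IP in clean air (7.06%), 3 for IP in formaldehyde (5.95%) and 5 for the interaction (2.92%). The 7 for IP in clean air include ENST00000507531 and ENST00000511216, and the 5 for the interaction include ENST00000507531. Since these *UVSSA* isoforms were part of the reason for the set, nothing is read from these counts. After adjustment only ENST00000507531 was called, as lower in CA_IP than in CA_IN. It was not called with library size in place of TMM, with a filter on mean count, with edgeR on the 4 libraries of the comparison, with either replicate block, or with any 1 of the 8 libraries left out.

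The other 8 genes lie on 8 chromosomes (GRCh38, GENCODE 44). *ERCC6* spans chr10:49454168-49539538, *ERCC8* chr5:60866454-60945073, *XAB2* chr19:7619525-7629545, *XPA* chr9:97674909-97697340 and *TDP2* chr6:24649979-24666930, all on the minus strand. *POLR2A* spans chr17:7484366-7514616, *SPRTN* chr1:231337104-231355023 and *TDP1* chr14:89954939-90044764, all on the plus strand.

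By length-normalized level, *POLR2A* stood highest in CA_IN with 14.1 ± 2.83 TPM, followed by *TDP2* with 8.20 ± 0.255 TPM, *ERCC8* with 5.73 ± 0.516 TPM and *TDP1* with 5.53 ± 0.149 TPM (SD, n = 2 each). *SPRTN* had 3.98 ± 0.603 TPM, *XAB2* 3.87 ± 0.458 TPM, *ERCC6* 3.23 ± 0.0490 TPM and *XPA* 3.15 ± 0.000363 TPM (SD, n = 2 each). *UVSSA* was lowest with 0.702 ± 0.126 TPM (SD, n = 2), 20.1 times below *POLR2A*. *ERCC8* and *TDP1* overlapped, as did *SPRTN* and *XAB2*, so their order is not resolved. The libraries of every other pair of neighbours were apart in CA_IN. In FA_IN the first 4 places and the last were the same, with *ERCC6* at 2.26 ± 0.272 TPM below *XPA* at 3.33 ± 0.367 TPM (SD, n = 2 each).

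Between formaldehyde and clean air inputs none of the 9 genes passed the test. By edgeR's quasi-likelihood test with Benjamini-Hochberg adjustment over all genes, 0 of 9 were called between FA_IN and CA_IN, 0 of 9 had an unadjusted p under 0.05, and DESeq2 on all 8 libraries or on 4 called 0 as well. Over all genes 0.00548% were called lower and 0% higher, and 3.35% had an unadjusted p under 0.05. The log2 fold changes (log2FC) of the 9 genes ranged from −0.27 to 0.17 with a median of 0.02, equal to the median of 0.02 over all genes.

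*ERCC6* had 33.2 and 26.5 CPM in CA_IN and 28.2 and 21.7 CPM in FA_IN, values that overlapped, with a log2FC of −0.26 (SE 0.20, adjusted p = 0.945). Within each replicate number FA_IN was the lower. With the replicate number as a block in the same test, the SE was 0.08 and the adjusted p 0.158. *ERCC8* had 20.7 and 23.7 CPM in CA_IN and 20.7 and 24.6 CPM in FA_IN, and its log2FC was 0.03 (SE 0.14, adjusted p = 0.982). The groups were superimposed. *XAB2* had 29.1 and 25.2 CPM in CA_IN against 32.9 and 26.8 CPM in FA_IN, again overlapping, with a log2FC of 0.13 (SE 0.14, adjusted p = 0.945).

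*POLR2A*, the polymerase subunit itself, was the member with the lowest log2FC. It had 144 and 116 CPM in CA_IN and 114 and 102 CPM in FA_IN, so both formaldehyde libraries lay just below both clean air libraries. The log2FC was −0.27 (SE 0.14, 95% interval −0.58 to 0.04, adjusted p = 0.945). Among all genes 15.8% had FA_IN below CA_IN without overlap, and *POLR2A* was 1 of 9 members. With the replicate number as a block its adjusted p was 0.0987, and 0 of 9 members were called, where 0.0767% of all genes were called higher and 1.34% lower. *XPA* was the 1 member above without overlap, where 18.1% of all genes were: it had 10.5 and 10.2 CPM in CA_IN and 11.6 and 11.7 CPM in FA_IN, with a log2FC of 0.17 (SE 0.13, 95% interval −0.12 to 0.47, adjusted p = 0.945). Both intervals included 0.

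Among the crosslink repair genes, *SPRTN* had 30.4 and 25.9 CPM in CA_IN and 26.5 and 24.2 CPM in FA_IN, with a log2FC of −0.15 (SE 0.13, 95% interval −0.45 to 0.14, adjusted p = 0.945). *TDP1* lay between 20.6 and 22.7 CPM in all 4 input libraries, and its log2FC was −0.03 (95% interval −0.30 to 0.24). *TDP2* lay between 36.6 and 37.9 CPM, with a log2FC of 0.02 (95% interval −0.23 to 0.28). In these 3 genes a change within the intervals was not detectable with 2 libraries a group.

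**Figure D3:**
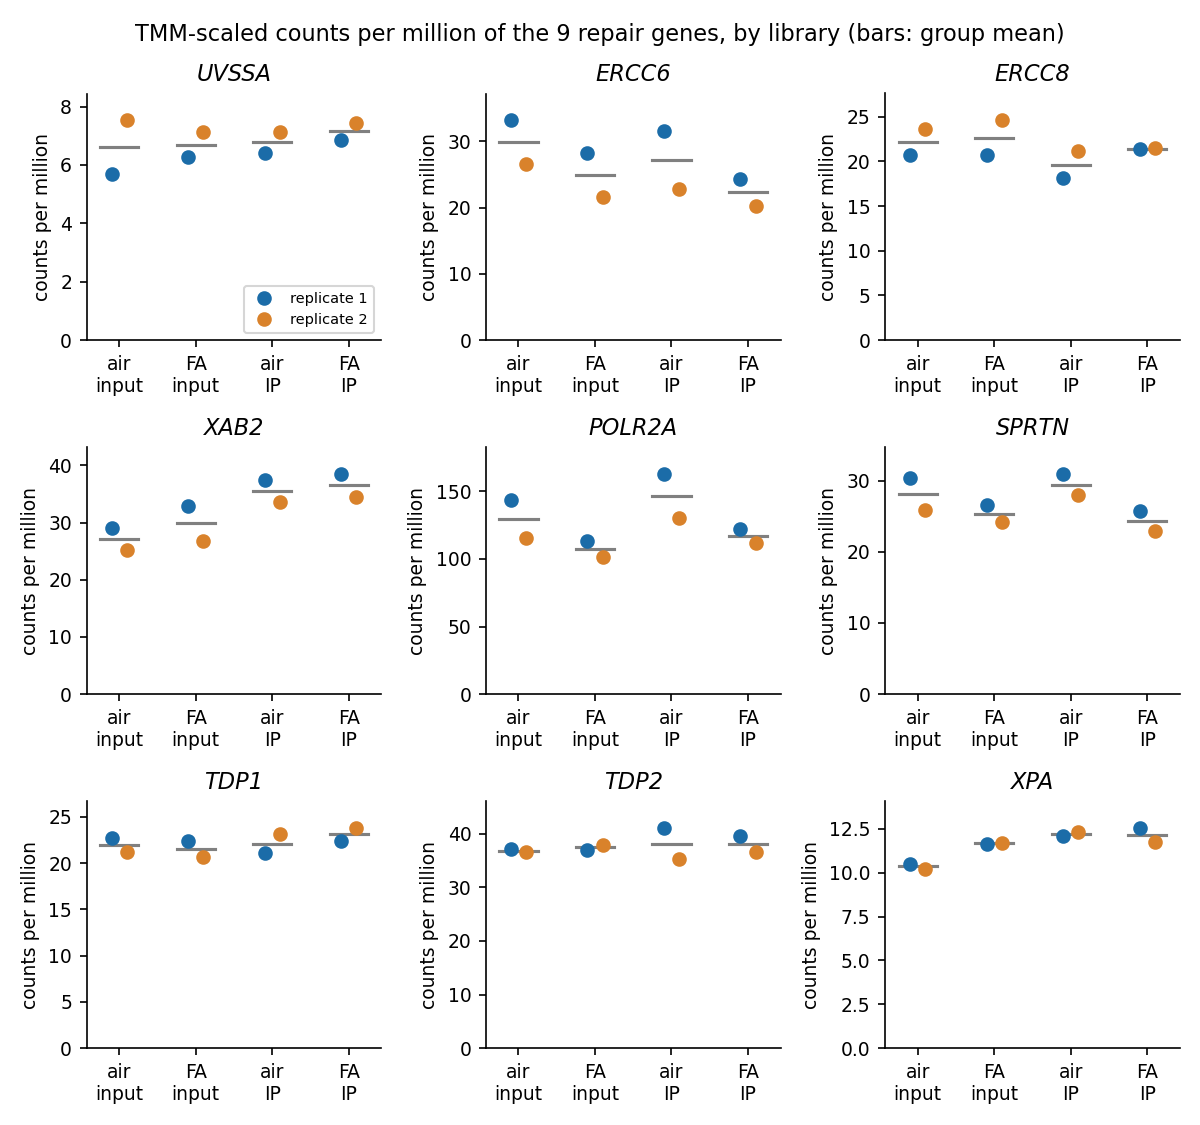
CPM on the TMM scale of the 9 genes in each of the 8 libraries, 1 panel per gene, with replicate 1 and 2 in separate colours and a bar at each group mean. *XAB2* lies higher in both IP groups (33.6 to 38.5) than in both input groups (25.2 to 32.9), while *POLR2A* and *ERCC6* are higher in replicate 1 of every group.

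Immunoprecipitation for 8-oxoG changed none of the 9 genes at an adjusted p under 0.05 in the model without a block. By the same edgeR test, 0 of 9 were called in CA_IP against CA_IN, where 0.148% of all genes were called higher and 1.77% lower, and 0 of 9 in FA_IP against FA_IN, where the shares were 0.0329% and 1.47%. At an unadjusted p under 0.05 there was 1 member in clean air (12.6% of all genes) and 0 in formaldehyde (9.1%), and DESeq2 called 0 in either. The log2FC ranged from −0.18 to 0.39 in clean air and from −0.16 to 0.29 in formaldehyde. Scaled by library size, the median gene shifted to 0.16 in clean air and 0.17 in formaldehyde, and more genes were called higher than lower (4.5% and 1.84% in clean air, 1.74% and 1.33% in formaldehyde).

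*XAB2* had the highest ratio of IP to input among the 9 genes in both treatments. In clean air it had 29.1 and 25.2 CPM in input and 37.4 and 33.6 CPM after IP. In formaldehyde it had 32.9 and 26.8 CPM in input and 38.5 and 34.5 CPM after IP. All IP libraries lay above all input libraries, and within each RNA pool the ratio was 1.28 and 1.33 in clean air and 1.17 and 1.29 in formaldehyde. The log2FC was 0.39 (SE 0.14, 95% interval 0.07 to 0.70, adjusted p = 0.281) in clean air and 0.29 (SE 0.14, 95% interval −0.03 to 0.61, adjusted p = 0.628) in formaldehyde. With the RNA pool, as paired by replicate number, as a replicate block, the log2FC was 0.39 (SE 0.08, adjusted p = 0.00102) in clean air and 0.30 (SE 0.08, adjusted p = 0.0157) in formaldehyde. Both passed. Replicate deviations correlated at 0.410 between FA_IN and FA_IP, against 0.420 between CA_IN and FA_IN. The data therefore do not single out the pairing in formaldehyde. With the replicate number alone as a block the adjusted p was 0.00898 in clean air, where 6.77% of all genes were called higher and 3.87% lower, and 0.0587 in formaldehyde, where 2.01% and 3.21% were. In the model by RNA pool 11.6% of all genes were called higher in clean air and 5.45% in formaldehyde, and *XAB2* was 1 of 9 members in each; 0 members were called lower, where 5.85% and 4.6% of all genes were. The difference of this ratio between the treatments did not pass the test (difference of log2FC −0.10, 95% interval −0.55 to 0.35).

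*POLR2A* was 1.13 times higher after IP in both clean air pools and 1.07 and 1.10 times higher in the formaldehyde pools. Its log2FC was 0.18 (SE 0.14, adjusted p = 0.691) in clean air and 0.12 (SE 0.14, adjusted p = 0.946) in formaldehyde, and with the RNA pool as a block its adjusted p was 0.0575 and 0.306. *XPA* had 10.5 and 10.2 CPM in CA_IN and 12.1 and 12.3 CPM in CA_IP, without overlap, but its log2FC of 0.23 (SE 0.13, adjusted p = 0.545) did not pass, and in formaldehyde it was 0.06 (SE 0.13, adjusted p = 0.986). *ERCC6* (log2FC −0.14 and −0.16) and *ERCC8* (−0.18 and −0.08) had values below 0 in clean air and formaldehyde, neither past the test. *SPRTN*, *TDP1* and *TDP2* lay between −0.06 and 0.11 in both treatments. Members with IP above input without overlap were 2 in clean air (*XAB2* and *XPA*), where 22.9% of all genes were, and 3 in formaldehyde (*XAB2*, *XPA* and *TDP1*), where 18.9% were; 0 members lay below without overlap in either, where 18.1% and 18.5% of all genes did. The interaction of treatment and IP was past the test for 0 of 9 genes, with 0 at an unadjusted p under 0.05 (1.07% of all genes) and 0 by DESeq2 on all 8 libraries; the differences of log2FC lay between −0.18 and 0.10.

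The antibody binds an oxidized guanosine, and the guanine content of the transcripts differed among the 9 genes. In 1 main isoform of each, taken from GENCODE 44, guanine made up 30.6% of the *XAB2* transcript and 28.5% of the *UVSSA* transcript (ENST00000389851, which had the largest share in input but not after IP), but 21.0% of *ERCC8* and 20.3% of *SPRTN*. The median over 17934 tested genes was 24.7%, and *XAB2* stood at percentile 89.7. The others had 26.4% (*XPA*), 25.0% (*POLR2A*), 23.2% (*TDP1*), 22.8% (*TDP2*) and 22.0% (*ERCC6*). Of these 9 transcripts that of *XAB2* had the highest guanine content and that of *SPRTN* the lowest. The *UVSSA* sequence had 4773 bases, while the counted transcript had 12605. The part of guanine content in the ratio was not tested.

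**Figure D4:**
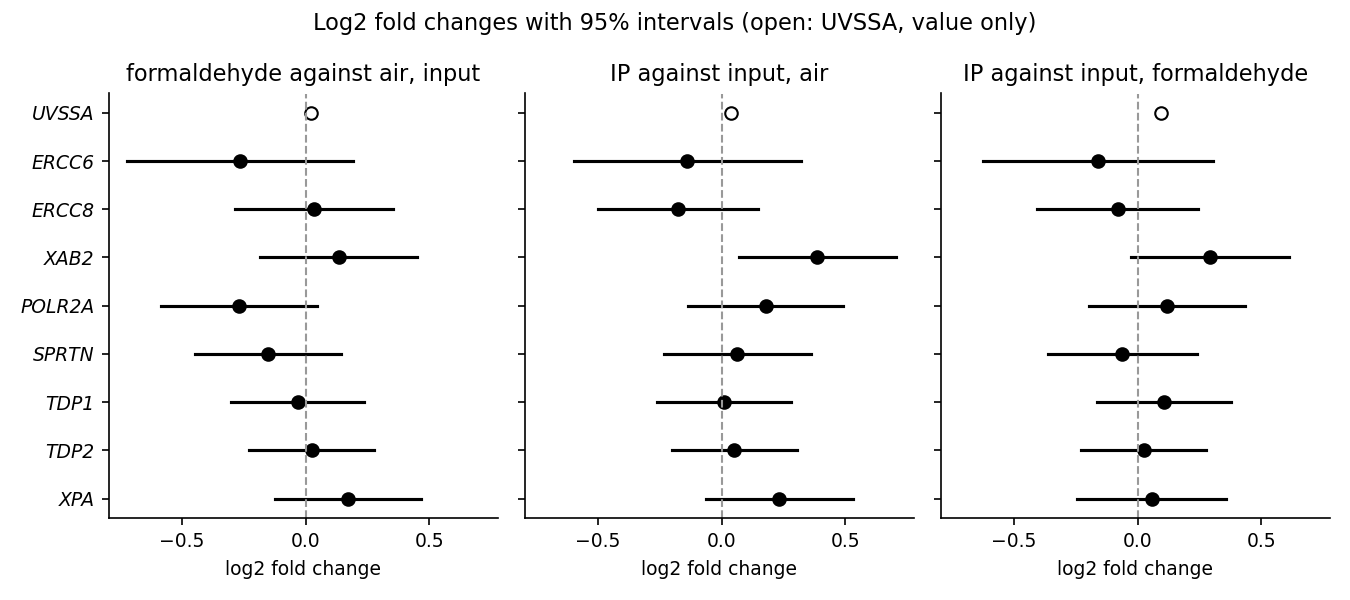
Log2 fold changes of the 9 genes (points) with 95% intervals (lines) for formaldehyde against clean air in input and for IP against input in each treatment, from edgeR on all 8 libraries without a block. *UVSSA* is an open point, drawn without an interval because the set was selected on it; among the other 8 genes only the *XAB2* interval in clean air (0.07 to 0.70) leaves out 0.

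Most of the other members used 1 dominant isoform, with a similar share in all libraries. ENST00000358368 held 91.2 to 94.8% of *XAB2* in the 8 libraries, ENST00000378198 held 89.1 to 93.1% of *TDP2*, and ENST00000375128 held 86.4 to 95.5% of *XPA*. ENST00000617998 held 74.9 to 81.9% of *POLR2A*; in GENCODE 44 it has no defined coding sequence. ENST00000295050 held 59.1 to 72.9% of *SPRTN* and ENST00000265038 held 62.2 to 72.9% of *ERCC8*. *ERCC6* was split: the long isoform ENST00000355832 held 37.5 to 43.8%, and ENST00000447839 held 28.7 to 36.9%. The latter ends after 6 exons in a last exon of its own (chr10:49515198-49517121) and codes for 1061 codons, the structure known for the fusion of the first part of CSB with the PGBD3 transposase. It was chosen for mention after its values were seen.

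Outside *UVSSA* no transcript differed by 20 percentage points in share between FA_IN and CA_IN, and the widest difference was 3.99 percentage points (ENST00000393452 of *TDP1*). Each transcript was also tested against the others of its gene (edgeR's diffSpliceDGE). In simulated counts this test recovered 20 of 100 planted changes of log2 size 2 and 61 of 100 of size 4. The absence of a call therefore cannot show unchanged isoform use. It called 0 of 50, where 0.169% of all tested transcripts were called, and 1 had an unadjusted p under 0.05 (3.41% of all). That 1 transcript was ENST00000553989 of *TDP1*, a short coding isoform of 728 bases. It had 12.8 and 19.8 counts in CA_IN and 0 and 0 in FA_IN, while the IP libraries had 13.3 and 16.0 in clean air and 12.9 and 7.31 in formaldehyde. With a floor of 3 counts per library, the mean of the formaldehyde inputs was 4.01-fold below that of the clean air inputs. The adjusted p of this isoform was 0.413 for isoform use. The cause of its 0 counts in FA_IN beside its counts in FA_IP was not tested. The main *TDP1* isoform, ENST00000393454, held 19.6% and 32.5% of the gene in CA_IP and 37.3% and 40.5% in FA_IP, against 29.5 to 35.7% in the input libraries.

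Levels also differed with replicate number. *POLR2A*, *ERCC6*, *SPRTN* and *XAB2* were higher in replicate 1 than in replicate 2 in all 4 groups, and *UVSSA* and *ERCC8* were lower in all 4. These 6 of 9 genes compare with 39.3% of all tested genes that kept one direction in the 4 groups. *POLR2A* in CA_IN replicate 1 was the highest input value of that gene at 144 CPM. Without that library its log2FC for formaldehyde was −0.11, and the range over the libraries left out in turn was −0.42 to −0.11.

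The genes whose pattern over the 8 libraries was most like that of *UVSSA* were *ANKRD27*, *IRF1-AS1*, *CASP4*, *LRP11* and *VWA5A*, with Pearson correlations of log2 CPM from 0.950 to 0.965 among 13909 genes with a mean of at least 1 CPM. The libraries share RNA pools and treatments, so these are descriptions. Among the other members the correlation with *UVSSA* was highest for *ERCC8* (0.563) and lowest for *ERCC6* (−0.812).

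The 9 genes belong to pathways of 87 genes in 8 lists, of which 86 were tested. Between FA_IN and CA_IN 0 of 86 were called by edgeR and 0 by DESeq2, with 0 at an unadjusted p under 0.05 (3.35% of all genes) and a median log2FC of 0.02; with a replicate block 1 was lower (1.34% of all genes). Among the values furthest from 0 in their lists were −0.49 (SE 0.31) for *GCNA*, a germ-line protein related to SPRTN, −0.42 (SE 0.25) for *ERCC4*, a subunit of an incision nuclease, 0.33 (SE 0.15) for the polymerase delta subunit *POLD4*, 0.22 (SE 0.12) for the end-processing factor *RAD50* and −0.13 (SE 0.14) for the damage sensor *XPC*. None of them passed.

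Between IP and input a few genes differed. In each treatment 7 of 86 genes were lower after IP, or 8.14% (1.77% of all genes in clean air and 1.47% in formaldehyde), and 0 were higher on the TMM scale without a block. They were *RBX1*, the RING subunit of the ligase that works with CSA; *GTF2H5*, the smallest TFIIH subunit; *RPA3*, the smallest subunit of replication protein A; and the small polymerase subunits *POLR2I*, *POLR2J*, *POLR2K* and *POLR2L*. *GTF2H5* had 26.4 and 26.0 CPM in CA_IN and 11.9 and 10.8 CPM in CA_IP, and 29.7 and 29.8 CPM in FA_IN against 11.5 and 11.6 CPM in FA_IP. It was 2.31-fold lower in clean air (adjusted p = 0.000747) and 2.57-fold lower in formaldehyde (adjusted p = 0.000605). *POLR2L* had 82.6 and 72.4 CPM in CA_IN and 34.7 and 38.8 CPM in CA_IP, and was 2.11-fold and 2.16-fold lower (adjusted p = 0.00214 and 0.00226). *RBX1* was 1.90-fold and 1.80-fold lower (adjusted p = 0.00151 and 0.00316), and *RPA3* 2.05-fold and 1.68-fold lower (adjusted p = 0.000479 and 0.00357). *POLR2A*, on the same polymerase, was not called, with log2FC of 0.18 in clean air and 0.12 in formaldehyde and intervals that included 0. Beyond these, the gap-filling polymerase subunit *POLE2* (log2FC −0.55, adjusted p = 0.0960), the mitochondrial topoisomerase *TOP1MT* (0.43, adjusted p = 0.467) and the SUMO ligase *PIAS4* (0.38, adjusted p = 0.518) had the values furthest from 0 in clean air in their lists without passing.

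The called genes were short by their count-weighted transcript length, except *GTF2H5*. *POLR2I* was the shortest of the 86 at 739 nt, and the other 5 besides *GTF2H5* measured 860 to 1200 nt and ranked 4, 6, 8, 10 and 11, while *GTF2H5* measured 3719 nt and ranked 58. Of the 8 genes under 1000 nt, 4 were called in each treatment, and 7 had a log2FC below 0 in formaldehyde and 6 in clean air. Of the 78 longer genes, 34 and 36 lay below 0. The part of length, fragmentation or the size range of the library kit was not tested. The 7 calls in formaldehyde fell to 2 without FA_IN replicate 1, 4 without FA_IP replicate 1 and 3 without FA_IP replicate 2, and those in clean air to 5 without CA_IP replicate 1. With library size in place of TMM 11 genes were higher and 7 lower in clean air (4.5% and 1.84% of all genes), and 3 higher and 5 lower in formaldehyde (1.74% and 1.33%). With the replicate number as a block 12 were higher and 8 lower in clean air (6.77% and 3.87% of all genes), and 0 higher and 7 lower in formaldehyde (2.01% and 3.21%). With the RNA pool as a replicate block 17 genes were higher and 9 lower in clean air (11.6% and 5.85% of all genes), and 7 higher and 10 lower in formaldehyde (5.45% and 4.6%), with all 7 named genes among the lower.

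**Figure D5:**
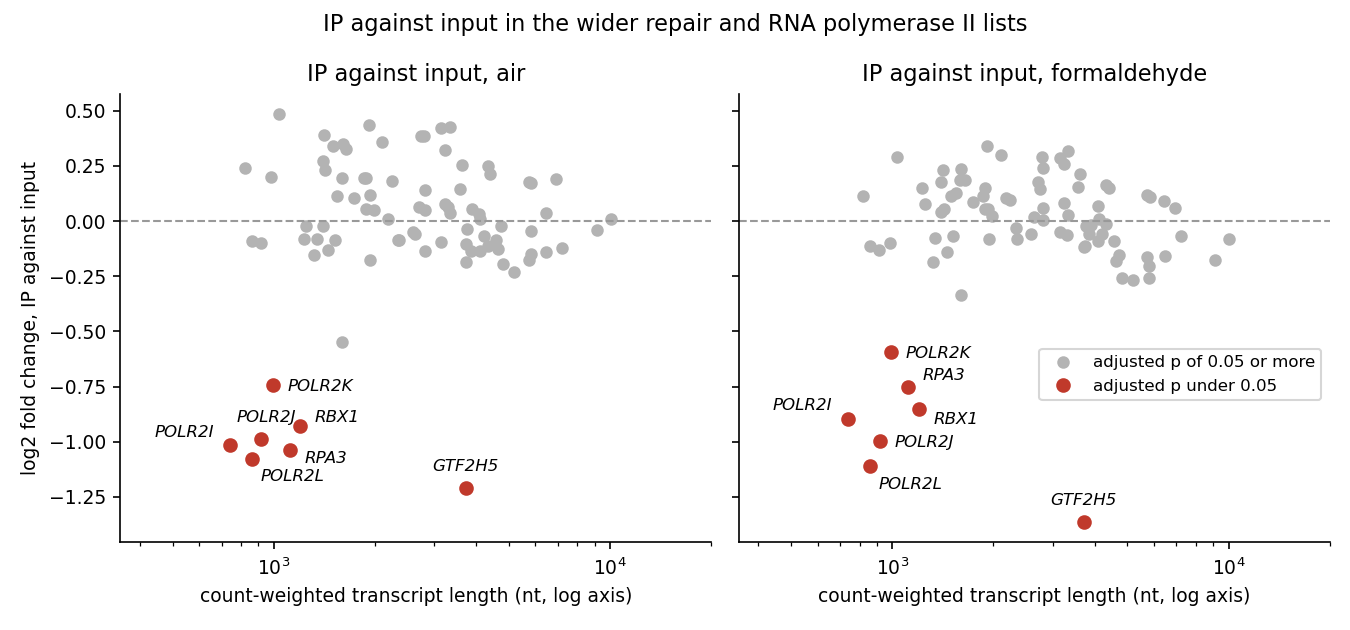
Log2 fold change of IP against input for the 86 tested genes of the 8 pathway lists, plotted against count-weighted transcript length (nt, log axis) in clean air (left) and formaldehyde (right). The 7 genes with an adjusted p under 0.05, named in the plot, all lie at or below −0.59, and all but *GTF2H5* are 1200 nt or shorter.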

How the data were processed

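RNA sequencing of 8 libraries was analysed as deposited. Per the labels and the study's methods, the authors trimmed reads with cutadapt, aligned them with STAR 2.6.0a to GRCh38 with Ensembl 94, and deposited RSEM 1.2.25 expected counts and effective lengths per transcript, unnormalized and with reads shared by isoforms divided among them. Their tables of DESeq2 log2 fold changes and p-values were not used. The labels name 2 antibody clones, of which the study's methods name 1.

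Expected counts were summed by gene and rounded (Python 3.11.15, pandas 2.3.3). Genes and transcripts with at least 10 counts in at least 2 libraries (18242 and 67873) were fitted in edgeR 4.0.16 (TMM, quasi-likelihood, 4 group means, 8 libraries, R 4.3.3), adjusted by Benjamini-Hochberg over all features, and called under 0.05. The common dispersion was 0.0190 for genes and 0.303 for transcripts. SE is the log2FC divided by the square root of F. TPM was recomputed from effective lengths. The input libraries held 26152651 to 45144392 counts and IP libraries 16883500 to 23658012; intervals and floors cover counting error only. The tests were checked on simulated counts. Of 100 planted changes of log2 size 2, the quasi-likelihood test recovered 100 in genes and 64 in transcripts, and diffSpliceDGE 20 in transcripts.

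The labels give no replicate numbers, and libraries were paired by the number in the names of the deposited tables. Input and IP of the same number were taken as split from the same RNA pool, after the study's methods. Deviations of replicate 1 from replicate 2 correlated over genes between every pair of groups, from 0.319 to 0.552. Between input and IP the correlation was 0.552 in clean air and 0.410 in formaldehyde. For CA_IN and FA_IN, which come from different pools, it was 0.420, so these values do not single out the formaldehyde pairing.

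Named genes were the 9 members, the tested *UVSSA* transcripts, the main transcript of each other member, list genes called or furthest from 0, and the 5 genes most like *UVSSA*; some genes of the lists are not reported here. Members and lists were chosen with earlier results of these data known. Alternatives were DESeq2 1.42.0, other scalings, filters and prior counts, replicate blocks, and each library left out.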

Additional observations from a re-analysis of the deposited data

Results flagged for a closer look

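In 1 of the 9 genes and 6 of the 50 tested isoforms, the difference between IP and input had opposite signs in formaldehyde and in clean air, in both RNA pools of each treatment; the libraries of IP and input overlapped in some of them, such as *SPRTN*. Among all tested features 6.3% of genes and 8.13% of transcripts did so. Each value is the difference in formaldehyde minus that in clean air, in CPM. It was −2.32 for the *SPRTN* gene (−1.05 in formaldehyde and 1.27 in clean air). For isoforms it was 3.37 for ENST00000393454 of *TDP1*, 1.24 for ENST00000497892 of *ERCC8*, −0.509 for ENST00000574158 and −0.347 for ENST00000576952 of *POLR2A*, and −1.28 for ENST00000623115 of *ERCC6*. By edgeR's quasi-likelihood test of the interaction, the adjusted p of each of these 6 was 1.00. For ENST00000507531 of *UVSSA* the value was 1.77 (0.422 in formaldehyde and −1.35 in clean air), with an adjusted p of 0.573 in the same test, from which nothing is read because the isoform was chosen for this pattern.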

How the results depend on the processing

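With 2 libraries a group and 124 to 276 *UVSSA* counts a library, depth limits the isoform shares. Of the 9 genes, 0 were called in the main model in any comparison. With the replicate block 1 was called in CA_IP against CA_IN, and with the replicate block by RNA pool 1 there and 1 in FA_IP against FA_IN, each time *XAB2*; the block by number changed no other gene call. Over its alternatives the adjusted p of *XAB2* ranged from 0.00102 to 0.852 in clean air and from 0.0157 to 1.00 in formaldehyde. Of the isoforms, 1 was called in CA_IP against CA_IN, and 0 with library size, a filter at mean 50 counts, the fit to 4 libraries by edgeR, the replicate block or the block by RNA pool, with a range of 0 to 0 when each library was left out; DESeq2 on 8 libraries called 2. In FA_IP against FA_IN DESeq2 on 8 libraries called 1 in place of 0, and for the interaction 1 was called without a filter and 1 by DESeq2 on 8 libraries. The cause of these differences was not tested.

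The FA_IP minus CA_IP share of ENST00000507531 was 17.3 percentage points, and 17.1 to 17.4 with a library left out. It was 23.6 on TPM and 17.6 over isoforms that passed the filter (alternatives chosen after seeing the data). The isoform was chosen for this pattern, so these values only describe it. The FA_IN minus CA_IN share ranged from −13.9 to −3.34 with a library left out, with the smallest difference without CA_IN replicate 1. With library size in place of TMM, log2FC changed sign for *ERCC8* (−0.0049) and *TDP2* (−0.016) in FA_IN against CA_IN, for *ERCC6* (0.016), *ERCC8* (0.088) and *SPRTN* (0.11) in FA_IP against FA_IN, and for *ERCC6* (0.011) in CA_IP against CA_IN. *TDP1* in CA_IP against CA_IN was −0.025 without a filter, −0.024 with the filter at mean 50, −0.0066 by DESeq2 on 8 libraries and −0.021 on 4. With a library left out, signs changed in FA_IN against CA_IN for *ERCC8* (−0.12 to 0.14), *XAB2* (−0.033 to 0.25), *TDP1* (−0.10 to 0.019) and *TDP2* (−0.016 to 0.034). They changed in FA_IP against FA_IN for *ERCC6* (−0.32 to 0.051), *ERCC8* (−0.19 to 0.070), *SPRTN* (−0.15 to 0.040) and *TDP2* (−0.036 to 0.10), and in CA_IP against CA_IN for *ERCC6* (−0.39 to 0.077), *SPRTN* (−0.059 to 0.18), *TDP1* (−0.059 to 0.078) and *TDP2* (−0.064 to 0.16). None of these values passed the test in either direction.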
